A study of Mus musculus with 24 samples.

Results

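Small RNA of the nucleus accumbens (NAc), a ventral striatal region that processes reward and emotion, was compared between stressed females (SF) and unstressed female controls (NSF). These groups held 3 small RNA libraries each, 6 of the 12 small RNA libraries and of the 24 libraries of the whole series, and were chosen by the stress condition in the sample labels. All mice were C57BL/6J females, 9 weeks old by the sample labels. The methods give an age 1 week lower, which by their schedule was the age when the stress began. By the methods only females in estrus or proestrus were used. SF mice went through subchronic variable stress (SCVS), in which foot shock, tail suspension and restraint alternated over days, and tissue was taken the day after the last stressor, while NSF mice stayed in their home cages. Each library was a pool of 10 ventral striatum punches from 5 mice, so the spread between libraries is a spread between pools and not between mice.

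microRNAs (miRs) are cut from hairpin precursors, and either arm of a hairpin can yield a mature miR. Bases 2 to 8 of the mature strand, the seed, pair with target mRNAs, which are then degraded or translated less, so miRs that share a seed share many predicted targets. Precursors often lie in genomic clusters that are transcribed together or within introns of protein-coding host genes, and a family is here the set of precursors that share a number in their name, such as mir-467a-1 and mir-467e.

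Of 1180 listed precursors, 500 exceeded 5 reads in 80% or more of the libraries in any group and were tested. The female libraries held 6831869 to 10771409 reads. A precursor is called regulated below when its p, before adjustment, was under 0.05 and its fold change reached 1.3. By these, 24 precursors were regulated. That was 4.8% of the precursors tested. Of these, 7 were upregulated (1.4% of those tested) and 17 downregulated (3.4%). No precursor had an adjusted p under 0.05 by voom-limma, edgeR or DESeq2, with 40, 38 and 26 precursors at an unadjusted p under 0.05, and the smallest adjusted p of voom-limma was 0.344. The members below are therefore described one by one as candidates at these thresholds. The tissue itself showed its striatal mRNA markers in the same pools, with Drd1a at 272 to 348 CPM (read counts scaled to a library of 1000000), Drd2 at 131 to 160 CPM and Ppp1r1b, which encodes DARPP-32, at 817 to 1006 CPM in the 6 female mRNA libraries.

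RefSeq held mature sequences for 17 of the 24 regulated precursors, on build GRCm38.p6, and the other 7 are named only. Some arms of the precursors named below are printed 5′ to 3′ with the seed in capitals. For several precursors a single arm is printed, and the choice does not mean that this arm changed. The paper lists the 3p arms of mir-1981 and mir-7224, which are not printed here, as upregulated in females. The first set belongs to downregulated precursors with the most reads or the most stable call, and the counts do not separate the arms of a precursor.
miR-206-3p: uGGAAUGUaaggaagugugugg
miR-340-5p: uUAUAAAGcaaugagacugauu
miR-340-3p: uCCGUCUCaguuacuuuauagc
miR-1981-5p: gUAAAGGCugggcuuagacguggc
miR-3064-5p: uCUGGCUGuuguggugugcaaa
miR-3064-3p: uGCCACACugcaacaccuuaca
miR-6959-5p: uGGGAAACcugugucgggcugug
miR-6959-3p: cUGCACCGaccugcucucccag

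The second set belongs to upregulated precursors.
miR-7224-5p: gGGUAGGCcccucagugaaga
miR-3061-5p: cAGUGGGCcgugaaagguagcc
miR-3095-3p: uGGACACUggagagagagcuuuu
miR-205-5p: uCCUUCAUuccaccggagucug
miR-208a-3p: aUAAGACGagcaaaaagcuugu

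The third set puts 2 downregulated miRs beside miRs of the same seed that are returned to below. Among tested precursors matched to a RefSeq sequence, the seed of miR-363-3p is that of miR-25-3p, miR-32-5p, miR-92a-3p and miR-92b-3p. The seed of miR-449c-5p is that of miR-449a-5p, miR-34a-5p and miR-34b-5p.
miR-363-3p: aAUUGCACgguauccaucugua
miR-25-3p: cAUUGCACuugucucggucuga
miR-92b-3p: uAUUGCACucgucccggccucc
miR-449c-5p: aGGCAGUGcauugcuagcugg
miR-449a-5p: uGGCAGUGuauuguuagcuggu
miR-34a-5p: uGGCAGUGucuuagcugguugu

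Log2 fold changes of the regulated precursors ran from −1.90 to 1.3, and the largest sat at the fewest reads. Over the 6 female libraries the median of the mean reads was 26.5 for the regulated precursors and 264 for all those tested. Of the 449 precursors with a mean of at least 10 reads, 17 were regulated (3.79%), and of the 51 below 10 reads, 7 were (13.7%). Regulated precursors together took 0.472, 0.539 and 0.625% of the reads in the NSF libraries and 0.403, 0.469 and 0.315% in the SF libraries. The SF and NSF libraries did not overlap for 17 of the 24 regulated precursors. The corresponding share over all tested precursors was 13.6% (68 of 500), but the p that selected the 24 rests on the same values. The median log2 fold change of all tested precursors was 0.01, with 258 above 0 and 242 below.

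**Figure D1:**
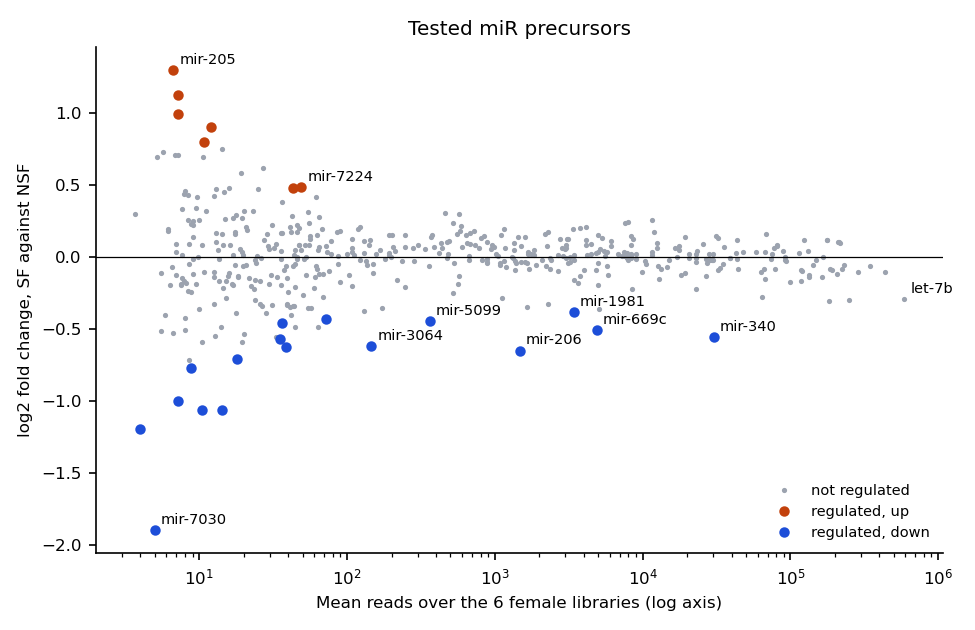
The log2 fold change of each of the 500 tested precursors, SF against NSF, is plotted against its mean reads over the 6 female libraries on a log axis, with the 7 upregulated precursors in orange, the 17 downregulated in blue and the rest in grey. The regulated precursors with the widest fold changes, such as mir-7030 at −1.90 and mir-205 at 1.3, lie at the left, under 10 reads.

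Among the 13 downregulated precursors with at least 10 reads, mir-340, lying in an intron of the gene of the ubiquitin ligase Rnf130, had the most reads. It stood at 3650, 3980 and 4849 CPM in the NSF libraries and at 3109, 3354 and 2126 CPM in the SF libraries. All 3 SF libraries were below all 3 NSF libraries, with SF replicate 3 lowest and NSF replicate 3 highest (log2 fold change −0.56 ± 0.25 SE). The call was lost without NSF replicate 2 (−0.58), NSF replicate 3 (−0.45) or SF replicate 3 (−0.36). It was also lost with edgeR (−0.54), DESeq2 (−0.55), library size scaling (−0.50), quantile normalization (−0.57) and a filter of at least 10 reads in every library (−0.56), so that 9 of 17 alternatives called it. Mature miR-340-5p, printed above, shares its seed with no other tested precursor in the RefSeq table, and mir-340 lies at chr11:49883204-49883301 of NCBIM37 on the plus strand.

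mir-206 is a muscle miR, known for its part in myoblast differentiation, and lies beside mir-133b on chromosome 1 (20669091 to 20669163, plus strand, outside any annotated gene of its strand). It had 188, 260 and 162 CPM in NSF and 97.6, 147 and 146 CPM in SF. The groups did not overlap, although NSF replicate 3 and SF replicate 2 were close (−0.65 ± 0.20 SE). Its call held under each of the 17 alternatives run, with log2 fold changes between −0.82 and −0.45 when 1 library was left out. mir-133b, the cluster partner, had a mean of only 8.33 reads and a log2 fold change of 0.26 ± 0.40 SE, which was not regulated. mir-1a-1, of the same muscle group, had 397, 422 and 414 CPM in NSF and 353, 339 and 409 CPM in SF (−0.16 ± 0.11 SE, not regulated).

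Of the muscle list as a whole, 8 of 9 listed precursors were tested, with 1 up (mir-208a), 1 down (mir-206) and a median log2 fold change of 0.10. Of the tested members, 5 were above 0 and 3 below. Their summed level was 611 to 716 CPM in NSF and 485 to 594 CPM in SF, without overlap, but this includes mir-206 itself. Without it the other 7 summed to 428 to 456 CPM in NSF and 376 to 449 CPM in SF, which overlap. mir-208a, hosted by the cardiac myosin gene Myh6, went the other way at 7.17 mean reads, and mir-208b, with the same seed on both arms, had −0.02 ± 0.20 SE at 45.5 mean reads. The part that muscle RNA in the punches has in these values was not tested. In pools of tissue, fewer cells of a type and less RNA per cell cannot be told apart.

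mir-3064 and mir-5099 differed with little spread between libraries. mir-3064, hosted by the RNA helicase gene Ddx5 and overlapping an exon of one of its transcripts (chr11:106644007-106644073, minus strand), had 18.6, 20.5 and 21.6 CPM in NSF and 13.3, 15.5 and 11.3 CPM in SF. Its groups were clearly apart, at −0.62 ± 0.16 SE, the smallest unadjusted p of the comparison (limma adjusted p = 0.344). mir-5099 (chr12:37542792-37542865, plus strand, outside annotated genes) had 44.9, 51.0 and 46.9 CPM in NSF and 35.2, 38.7 and 32.0 CPM in SF. Again every SF library was below every NSF library, at −0.45 ± 0.14 SE. Both kept the call under all 17 alternatives. A precursor that shares the seed of miR-3064-5p, mir-3085, had −0.05 ± 0.22 SE.

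mir-1981 and mir-6900 were lower by less. mir-1981, in an intron of Mosc2, had 377, 452 and 502 CPM in NSF and 315, 402 and 308 CPM in SF. SF replicate 2 lay above NSF replicate 1, so the groups overlapped (−0.39 ± 0.15 SE), and the call was lost without NSF replicate 2 (−0.37), NSF replicate 3 (−0.31), SF replicate 1 (−0.34) or SF replicate 3 (−0.32). It was also lost with library size scaling (−0.33), quantile normalization (−0.36) and library quality weights (−0.37), where the fold change fell short. mir-6900 had 9.31, 10.1 and 8.76 CPM in NSF and 6.81, 8.54 and 6.11 CPM in SF. These did not overlap (−0.43 ± 0.15 SE), though SF replicate 2 was only just below the lowest NSF library and the call was lost without NSF replicate 2 (−0.37) or SF replicate 3 (−0.32) and with library size scaling (−0.37).

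Among downregulated precursors with at least 10 reads, mir-6979 and mir-6959 had the widest fold changes and mir-363 followed. The numbers of the first pair are those of late miRBase entries, many of which derive from short introns. mir-6979 had 1.69, 2.22 and 2.71 CPM in NSF against 0.745, 0.996 and 1.35 CPM in SF, and mir-6959, in an intron of Sbf1, had 2.26, 1.35 and 1.55 CPM against 0.639, 0.996 and 0.719 CPM. In neither did the groups overlap, and the log2 fold changes were −1.07 ± 0.28 SE for mir-6979 and −1.07 ± 0.29 SE for mir-6959. Mean reads were 14.2 and 10.5, and the calls held under every alternative that tested them, 16 each.

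mir-363, the last precursor of the mir-106a to mir-363 cluster on chromosome X, had 2.12, 2.71 and 2.83 CPM in NSF and 1.70, 1.85 and 1.26 CPM in SF. All SF libraries were below all NSF libraries (−0.71 ± 0.24 SE), and the call was lost with DESeq2 and without SF replicate 3 (−0.53). The miR-363-3p seed is also carried by precursors with many more reads, of which none was regulated. mir-25 had −0.02 ± 0.10 SE at 8960 mean reads and mir-92b −0.06 ± 0.15 SE at 2230, and over the 6 tested precursors of this seed the median log2 fold change was −0.05, with 1 regulated. Reads of mir-363 came to 18.0 per library on average.

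**Figure D2:**
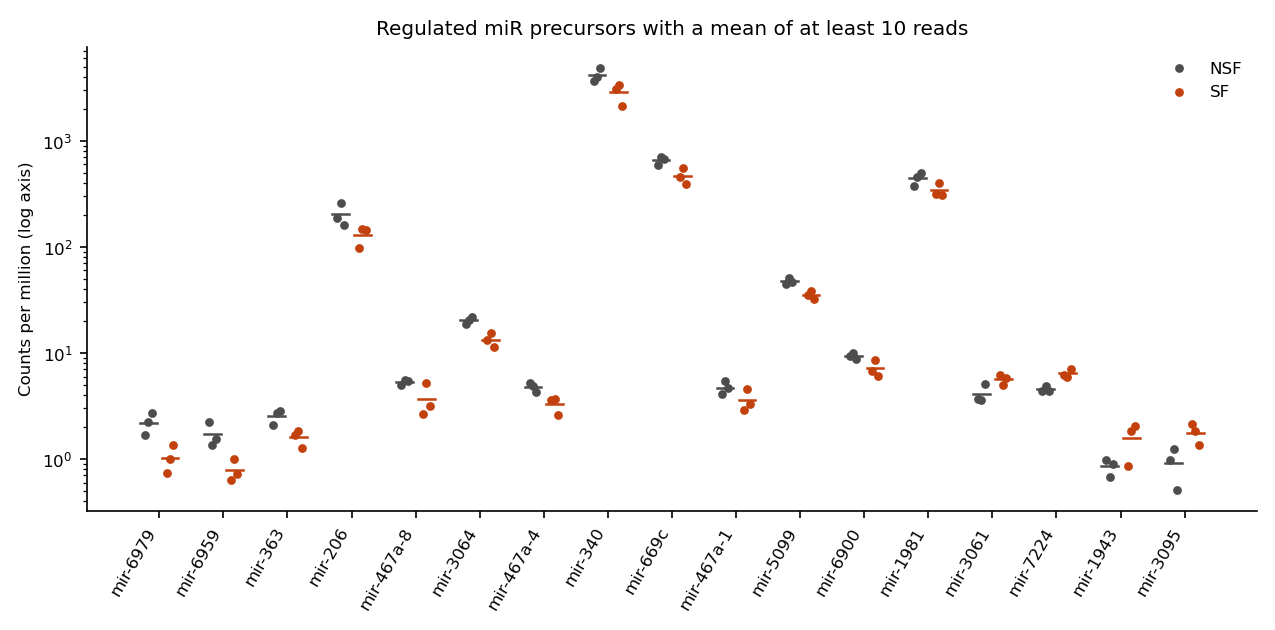
CPM on a log axis of the 17 regulated precursors with a mean of at least 10 reads, with 1 point per library, NSF in grey and SF in orange, and group means as short lines. Points of the groups overlap for mir-467a-8, mir-467a-1, mir-1981, mir-3061 and mir-1943, and are apart for the other 12.

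The remaining downregulated precursors with at least 10 reads were mir-669c, mir-467a-1, mir-467a-4 and mir-467a-8. All lie in introns of Sfmbt2, an imprinted Polycomb gene on chromosome 2 whose intron holds a large rodent cluster of repeated mir-297, mir-466, mir-467 and mir-669 precursors. mir-669c, with the most reads of the cluster, had 591, 709 and 668 CPM in NSF and 456, 553 and 391 CPM in SF. The groups did not overlap, at −0.51 ± 0.18 SE, and the call was lost only without SF replicate 3 (−0.39) among the 17 alternatives.

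mir-467a-4 had 5.22, 4.93 and 4.25 CPM in NSF and 3.62, 3.70 and 2.61 CPM in SF (−0.57 ± 0.20 SE, no overlap, call lost without SF replicate 3 at −0.39). mir-467a-8 had 4.94, 5.51 and 5.41 CPM in NSF and 2.66, 5.26 and 3.15 CPM in SF (−0.63 ± 0.21 SE). There SF replicate 2 was at the NSF level, and the call was lost without SF replicate 1 (−0.44). mir-467a-1 had 4.09, 5.41 and 4.64 CPM in NSF and 2.87, 4.55 and 3.33 CPM in SF, with overlap (−0.46 ± 0.21 SE). Its call was lost without NSF replicate 2 (−0.34), NSF replicate 3 (−0.49), SF replicate 1 (−0.32) or SF replicate 3 (−0.43), and with replicate number as a block (−0.40). edgeR (−0.44), DESeq2 (−0.44), library size scaling (−0.40), either read filter (−0.46 with any read, −0.44 with at least 10 in every library) and the fit of the female libraries alone (−0.45) did not call it either, so that it was called in 6 of 17 alternatives.

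Precursors of 1 name that differ only in the copy number at its end can yield the same mature miR, and their reads cannot be assigned with certainty. The 10 copies of mir-467a each held 210 to 268 reads over the 6 female libraries, and 9 of the 10 had a log2 fold change below 0, between −0.63 and −0.09, with mir-467a-5 at 0.17. With the copies summed, mir-467a stood at 49.6, 53.4 and 47.6 CPM in NSF and 38.9, 52.2 and 33.3 CPM in SF. Its log2 fold change was then −0.32 ± 0.14 SE, below the fold threshold, so that the 3 separate calls became none. Of the 12 copies of mir-669a, in contrast, mir-669a-3 alone had reads, 43 in all, and it was upregulated. Summing the copies of every name left 20 of 456 names regulated (4.39%), 19 of them names of the 24.

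Of the 65 listed precursors of this cluster, mir-466f-1 to mir-669h, 30 were tested, with 1 up and 4 down and a median log2 fold change of −0.01. Their log2 fold changes were split 15 above and 15 below 0. By family, mir-467 had 14 tested members, 3 down and a median of −0.29, and 9 of the 14 were below 0. All 9 are copies of mir-467a, which fill 10 of the 14 places. The 4 members of other names were above 0 and not regulated, at 0.04 for mir-467b, 0.13 for mir-467c, 0.12 for mir-467d and 0.03 for mir-467e, which had the most reads of the family. mir-669 had 12 tested members with 1 up, 1 down and a median of 0.04, and mir-466 had 5 with none regulated and a median of 0.01. The downregulated members of the cluster were mir-669c and copies of mir-467a, and the upregulated one was mir-669a-3. The 5 calls among 30 stand beside 4.8% over all tested precursors, but 3 of them share reads as copies of 1 name.

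Beside Sfmbt2, mir-363 to mir-106a was the only other cluster of at least 3 tested members with a regulated one, among 13 clusters with 115 members. Its 4 tested members had a median log2 fold change of −0.15, with mir-19b-2, the member with the most reads, at 0.09 ± 0.08 SE and mir-20b at −0.33 ± 0.26 SE. The related mir-17 to mir-92a-1 cluster on chromosome 14 had no regulated member among 6 (median 0.05), and neither had mir-25 to mir-106b among 3 (median 0.01). These polycistrons are known for their roles in proliferation, and none of the 6 members of mir-17 to mir-92a-1 differed by more than 0.21 on the log2 scale in size.

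The imprinted Dlk1-Dio3 region of chromosome 12, whose maternally expressed miRs are abundant in neurons, held most of the other clustered precursors. Of its mir-379 to mir-3072 cluster, 34 members were tested, 17 above and 17 below 0, with a median of 0.00 and none regulated. mir-381, with the most reads there, was not regulated, and the log2 fold changes of the cluster ran from −0.35 (mir-539) to 0.43 (mir-1197). The neighbouring mir-770 to mir-136 cluster had 11 tested members, a median of 0.03 and none regulated, with mir-434 at the most reads.

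The mir-182, mir-96 and mir-183 cluster on chromosome 6, known from sensory organs, had the lowest median of any cluster, −0.49, with no member regulated. mir-96 had 4.94, 6.57 and 14.7 CPM in NSF and 4.68, 4.13 and 7.998 CPM in SF. NSF replicate 3 and SF replicate 3 were each the highest of their group, and the groups overlapped. mir-183 had −0.56 ± 0.31 SE and mir-182 0.08 ± 0.27 SE.

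Across the 25 families with at least 3 tested members (125 precursors), mir-467 and mir-669 held regulated members and 23 families held none. Family medians ran from −0.29 for mir-467 to 0.17 for mir-34, and 24 of the 25 lay within 0.2 of 0. Members of brain-enriched families lay close together. The 3 mir-124 precursors had log2 fold changes of 0.10 to 0.11, the 3 mir-9 precursors 0.06 to 0.08, and the 6 mir-181 precursors −0.03 to 0.02. Copies in these families share mature sequences, so their agreement is partly that of the same reads. In the mir-344 family, 11 of 13 members were below 0, but its median was −0.05 and none was regulated. By shared seed, 28 groups of at least 3 tested precursors had medians between −0.16 and 0.23. Of these, 2 had a regulated member, those of miR-363-3p and miR-449c-5p. Seeds were available for 437 of the 500 tested precursors. The 7 regulated precursors without a mature sequence, among them mir-669c and the regulated copies of mir-467a, could not enter a seed group.

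**Figure D3:**
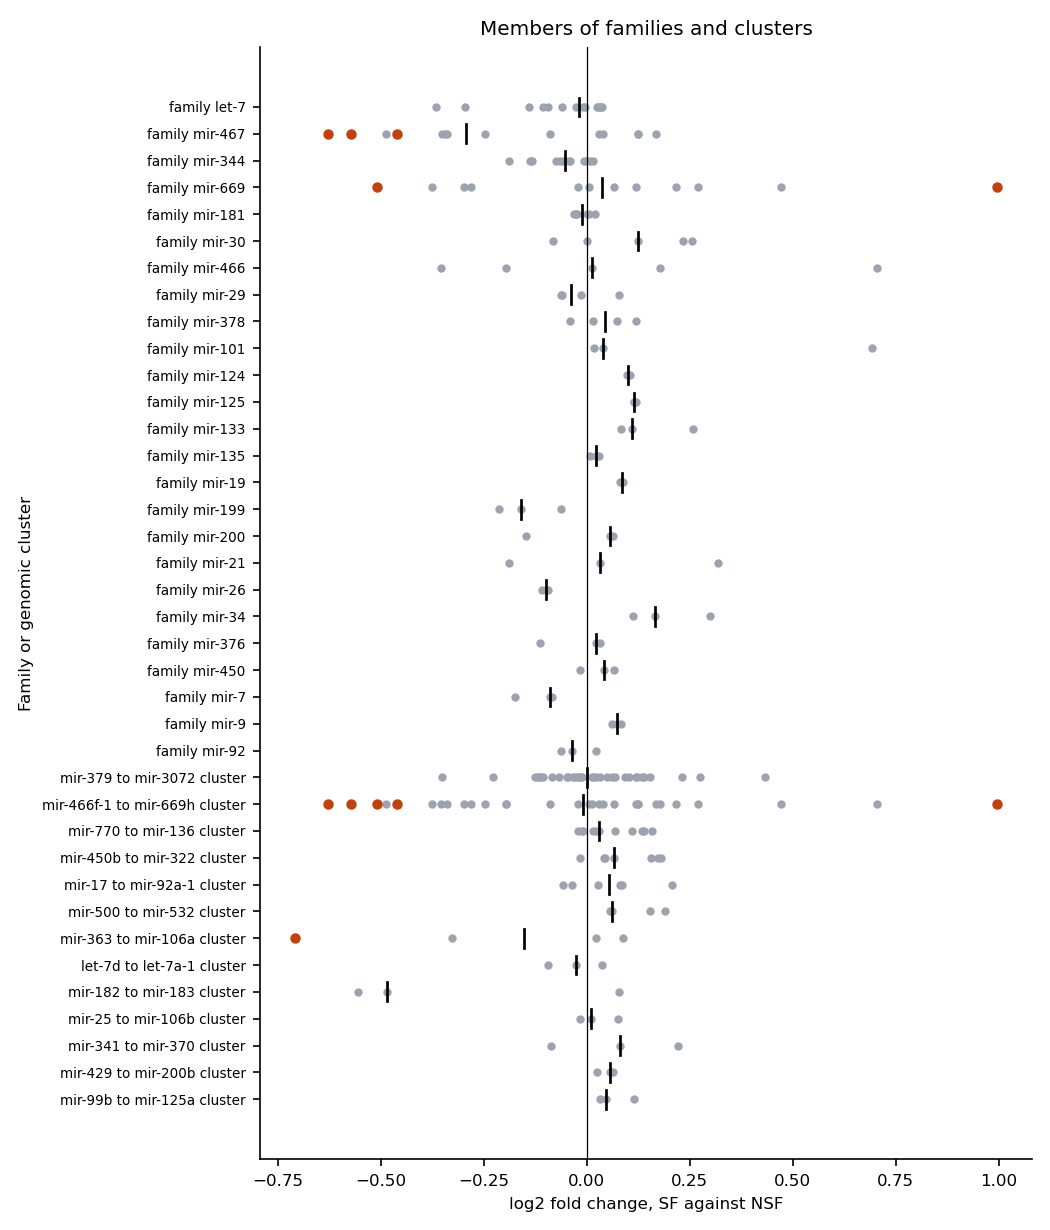
Log2 fold change, SF against NSF, of each tested member of the 25 families and 13 genomic clusters with at least 3 tested members, in rows, with regulated members in orange and medians as black bars. Orange points are confined to 4 rows (mir-467, mir-669, the Sfmbt2 cluster mir-466f-1 to mir-669h, and mir-363 to mir-106a), and medians of all rows but mir-467 and mir-182 to mir-183 lie within 0.2 of 0.

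Of the 7 upregulated precursors, 4 had at least 10 reads. mir-7224, on chromosome 2 outside annotated genes (67513514 to 67513573, plus strand), had 4.37, 4.93 and 4.38 CPM in NSF and 6.17, 5.98 and 7.10 CPM in SF. The SF libraries were all above the NSF libraries (0.49 ± 0.16 SE), and the call held under all 17 alternatives. It was the only upregulated precursor of which this was true, since DESeq2 called 1 precursor up in all.

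mir-3061, which overlaps an exon of Ppp2ca, the catalytic subunit of protein phosphatase 2A, and genes annotated on the other strand, had 3.67, 3.58 and 5.15 CPM in NSF and 6.17, 4.98 and 5.75 CPM in SF. NSF replicate 3 exceeded SF replicate 2, so the groups overlapped (0.48 ± 0.20 SE). Its call was lost with the replicate block (0.44), with DESeq2 (0.46) and without NSF replicate 1 (0.42), NSF replicate 2 (0.37), SF replicate 1 (0.42) or SF replicate 3 (0.46). mir-3095, in an intron of the lysophosphatidic acid receptor gene Lpar1, had 0.988, 1.26 and 0.515 CPM in NSF and 2.13, 1.85 and 1.35 CPM in SF (0.90 ± 0.39 SE). The groups did not overlap, but the call was lost without NSF replicate 1 (0.97), NSF replicate 3 (0.56), SF replicate 1 (0.74) or SF replicate 2 (0.86), and with DESeq2 (0.90) or library quality weights (0.71).

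mir-1943, in an intron of Tmem184b, had 0.988, 0.677 and 0.902 CPM in NSF and 0.852, 1.85 and 2.07 CPM in SF. SF replicate 1 was at the NSF level (0.80 ± 0.37 SE), and the call held only without SF replicate 1 among the 6 fits with a library left out. In the other 5 the value was 0.90 without NSF replicate 1, 0.61 without NSF replicate 2, 0.84 without NSF replicate 3, 0.68 without SF replicate 2 and 0.50 without SF replicate 3. DESeq2 (0.91), quantile normalization (0.71), the any-read filter (0.79) and the female libraries alone (0.79) did not call it. The seed of miR-1943-5p is also that of miR-149-3p. Its precursor mir-149 had −0.13 ± 0.42 SE at 27007 mean reads, which do not separate the 3p arm from the other.

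The 7 regulated precursors with fewer than 10 mean reads had 4 to 8.83 reads per library. Of these, mir-7030 (−1.90 ± 0.60 SE, 5 mean reads, intron of Rab35), mir-5125 (−1.20 ± 0.55 SE, 4 mean reads, intron of Srrm2), mir-8120 (−1.0 ± 0.43 SE, 7.17 mean reads) and mir-449c (−0.77 ± 0.33 SE, 8.83 mean reads, intron of Cdc20b) were down. mir-205 (1.3 ± 0.53 SE, 6.67 mean reads), an epithelial miR that overlaps an exon of 4631405K08Rik, mir-208a (1.12 ± 0.36 SE, 7.17 mean reads) and mir-669a-3 (1.00 ± 0.39 SE, 7.17 mean reads) were up. Differences at this depth rest on a few reads, and mir-7030 had none in SF replicate 2, without which its value was −1.03 and the call was lost. mir-208a kept the call with each library left out. DESeq2 called none of the 7 except mir-7030. Library size scaling lost mir-5125 (−1.14) and mir-449c (−0.72), the female libraries alone lost mir-449c (−0.76), and mir-5125 was also lost with quantile normalization (−0.96), the any-read filter (−1.15) and library quality weights (−0.87).

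In the other 5, the call was lost for mir-5125 without NSF replicate 1 (−1.10), NSF replicate 3 (−0.79), SF replicate 1 (−1.14) or SF replicate 2 (−0.97), and for mir-8120 without NSF replicate 1 (−0.99), NSF replicate 2 (−1.05), NSF replicate 3 (−0.99) or SF replicate 3 (−0.69). mir-449c lost it without NSF replicate 2 (−0.48), SF replicate 1 (−0.58) or SF replicate 3 (−0.78). mir-669a-3 lost it without NSF replicate 1 (0.90) or SF replicate 1 (0.88), and mir-205 without NSF replicate 1 (1.14), NSF replicate 3 (1.05), SF replicate 1 (1.21) or SF replicate 2 (1.24).

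mir-449c belongs to the miR-34/449 group, known from multiciliated cells. Among tested precursors matched to a RefSeq sequence, none of the others with the seed of miR-449c-5p was regulated. mir-449a had 0.04 ± 0.17 SE at 107 mean reads, mir-34a 0.30 ± 0.20 SE and mir-34b 0.17 ± 0.23 SE. mir-34c, of the mir-34 family, had 0.11 ± 0.24 SE at 4106 mean reads and was not regulated. It was not placed in this seed set, which depends on a RefSeq match, and its absence is not read as a different seed. The ciliated and choroid plexus list as a whole summed to 897 to 1144 CPM in NSF and 904 to 1364 CPM in SF, with 5 of 6 tested members above 0. mir-204, enriched in choroid plexus, was 372 to 422 CPM in NSF and 440 to 480 CPM in SF, without overlap (0.20 ± 0.11 SE, not regulated). The part of choroid plexus or ependyma in the punches was not tested.

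A further 16 precursors had an unadjusted p under 0.05 without reaching the fold threshold, 10 lower and 6 higher, and they include some of the most abundant miRs of the tissue. let-7b, with the most reads of any, had 76303, 79140 and 66858 CPM in NSF and 64375, 63627 and 53367 CPM in SF. Each SF library was below each NSF library (−0.30 ± 0.10 SE, a 1.23-fold difference). With 1 library left out, the value of let-7b ran from −0.38 (without NSF replicate 3) to −0.21 (without SF replicate 3). Only without NSF replicate 3 did it pass the fold threshold. It was −0.34 with library quality weights, −0.30 with DESeq2 size factors and −0.24 with library size scaling. Quantile normalization gives the precursor with the most reads the same value in every library. The 0.00 of let-7b in that setting was therefore fixed in advance and says nothing of its size. mir-139, also among the 10 precursors with the most reads, had 30660.3, 32040 and 32447 CPM in NSF and 25536, 28118 and 23934 CPM in SF (−0.30 ± 0.11 SE, no overlap). The other 8 of these 10, among them the 3 copies of mir-124 and both of mir-29b, had overlapping groups and log2 fold changes no larger than 0.11 in size. Chosen after their values were seen, mir-148a (−0.28 ± 0.08 SE), let-7k (−0.37 ± 0.11 SE), mir-539 (−0.35 ± 0.11 SE) and mir-325 (−0.33 ± 0.12 SE) were lower and mir-30c-1 (0.23 ± 0.10 SE) and mir-30c-2 (0.26 ± 0.11 SE) higher in all 3 SF libraries. let-7b and let-7k are the only members of the 14 in the let-7 family with a log2 fold change beyond 0.2 in size, and the family median was −0.02.

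Lists of miRs linked to stress hormones or to neuronal activity held no regulated member. Of 14 tested glucocorticoid and stress linked precursors, 12 were above 0 with a median of 0.06. Of 17 tested activity regulated precursors, 10 were above 0 with a median of 0.01, and mir-132, which CREB induces with neuronal activity, had 2928, 3140 and 3672 CPM in NSF and 3073, 2867 and 3672 CPM in SF. The 5 precursors hosted by the serotonin receptor gene Htr2c had none regulated and a median of 0.06. Among the marker lists, none of 12 neuronal precursors was regulated (summed level 189780 to 204552 CPM in NSF and 187214 to 200945 CPM in SF).

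Of the other marker lists, that of epithelium and olfactory bulb held the upregulated mir-205, and the rest below held no regulated member. The immune list summed to 323 to 360 CPM in NSF and 321 to 357 CPM in SF over 3 tested members, mir-144 of red blood cells was 150 to 213 CPM in NSF and 157 to 187 CPM in SF, and the endocrine list gave 24328 to 25778 CPM and 21426 to 26845 CPM. The epithelial and olfactory bulb list, which holds mir-205, summed to 55.4 to 85.8 CPM in NSF and 71.0 to 86.5 CPM in SF. The hindbrain and spinal cord list, with mir-10a and mir-10b tested and the mir-196 precursors at or near 0 reads, summed to 43.5 to 56.0 CPM in NSF and 54.1 to 67.4 CPM in SF (mir-10a 0.30 ± 0.13 SE, mir-10b 0.61 ± 0.31 SE, neither regulated). The 2 tested vascular precursors summed to 4727 to 4877 CPM in NSF and 5006 to 5322 CPM in SF, without overlap and without a regulated member. Most of this sum was mir-143, at 4639 to 4795 CPM in NSF and 4913 to 5217 CPM in SF. The groups overlapped for mir-145a, at 81.4 to 104 CPM in NSF and 92.9 to 105 CPM in SF.

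Some defining markers could not be read from these counts. mir-219a-1, mir-219a-2 and mir-338 of oligodendrocytes, mir-142 of microglia, mir-126a of endothelium, mir-451a of red blood cells and both mir-24 precursors were at 0 to 2 reads in every library. In NCBIM37 each of these overlaps another listed precursor on the opposite strand. There were 20 such overlapping pairs, and none of their 40 precursors had more than 5 reads in any of the 12 small RNA libraries, so none was tested. No read fell on 87.5% of them in the female libraries, against 26.9% of all listed precursors. What the strand setting of the counting has to do with it was not tested, and their zeros are not read as levels here. Other list members not among these pairs were also at 0 to 2 reads in every female library. They were mir-486 of red blood cells, mir-1a-2 of muscle, mir-449b of ciliated cells and the mir-196 precursors.

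The stress effect in females was set against that in males (SM against NSM, 3 libraries each, from the same fit) by testing the difference between them. Of the 500 precursors, 34 (6.8%) met the thresholds for this difference, 17 higher in females and 17 higher in males, with 44 at an unadjusted p under 0.05. Among the 34 were 14 of the 24 regulated in females. The difference contains the SF against NSF effect that selected the 24, so part of this overlap is built in. It is not read as a sign that the female effects are particular to females. mir-206 alone had a limma adjusted p under 0.05, 0.0131. It had 67.8, 73.4 and 48.0 CPM in NSM and 165, 139 and 111 CPM in SM. Thus it was higher in all SM than in all NSM libraries (1.14 ± 0.22 SE), while it was lower in all SF than in all NSF libraries, and the female minus male difference was −1.80 ± 0.30 SE. mir-1a-1 had a difference in the same direction, −0.59 ± 0.16 SE, with a limma adjusted p of 0.294.

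Of the 24 precursors regulated in females, 19 had the opposite sign in males and 5 the same, and 3 of the 24 are mir-467a copies that share reads. Signs were opposite for 241 of all 500 tested precursors (48.2%), and this count over the 24 has no test of its own. Besides mir-206, mir-5099 (0.47 ± 0.15 SE in males, the opposite direction) and mir-7224 (0.40 ± 0.17 SE, the same direction) met the thresholds in males too. The female and male differences of mir-5099 were −0.92 ± 0.21 SE apart (limma adjusted p = 0.133), and those of mir-7224 0.08 ± 0.23 SE apart. mir-467a-8, mir-467a-4, mir-669c and mir-449c were below 0 in both sexes.

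**Figure D4:**
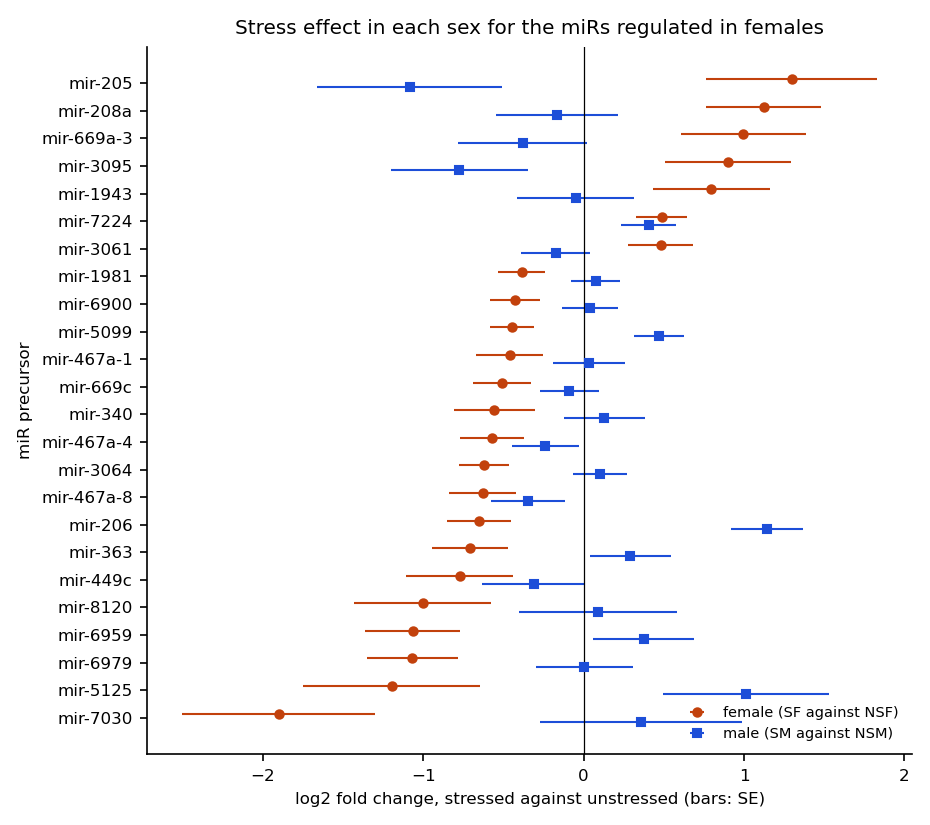
Log2 fold change of stressed against unstressed mice with SE bars for the 24 precursors regulated in females, females as orange circles and males as blue squares. mir-206 shows the widest separation relative to its bars, at −0.65 in females and 1.14 in males, and mir-7224 lies at 0.49 and 0.40.

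Host gene mRNA was measured in the same pools, as RNA of each pool was split into a small and a large fraction. Of the 24 regulated precursors, 22 were placed in NCBIM37, 17 of them within a gene of the same strand (77.3%, against 63.5% of the 466 tested precursors that were placed). These lay in 13 host genes, and 11 of these were tested. None was regulated at the thresholds, which 1.73% of the 18593 tested genes met, and no host had an unadjusted p under 0.05. Log2 fold changes of the hosts ran from −0.43 to 0.14, and 7 of the 15 tested pairs of precursor and host had the same sign. Sfmbt2 hosts several of these precursors, so the same host value enters several pairs, some with mir-467a copies that share reads.

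Differences in host mRNA were small for the regulated miRs with the most reads. Rnf130 had 37.0, 31.9 and 35.5 CPM in NSF and 33.2, 36.0 and 36.6 CPM in SF (0.02 ± 0.06 SE), while mir-340 was down. Ddx5, hosting mir-3064, had −0.02 ± 0.05 SE, and Sfmbt2 had 4.06, 5.18 and 4.80 CPM in NSF and 4.26, 5.59 and 4.72 CPM in SF (0.04 ± 0.13 SE). Lpar1 had 34.5, 33.0 and 31.7 CPM in NSF and 34.2, 38.1 and 36.7 CPM in SF, in the direction of mir-3095 (0.14 ± 0.07 SE). Myh6 went against mir-208a, with 2.615, 2.80 and 2.70 CPM in NSF and 1.74, 2.41 and 1.92 CPM in SF. These did not overlap (−0.43 ± 0.24 SE), and with replicate number as a block Myh6 met the thresholds (−0.41 ± 0.13 SE, limma adjusted p = 0.546).

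**Figure D5:**
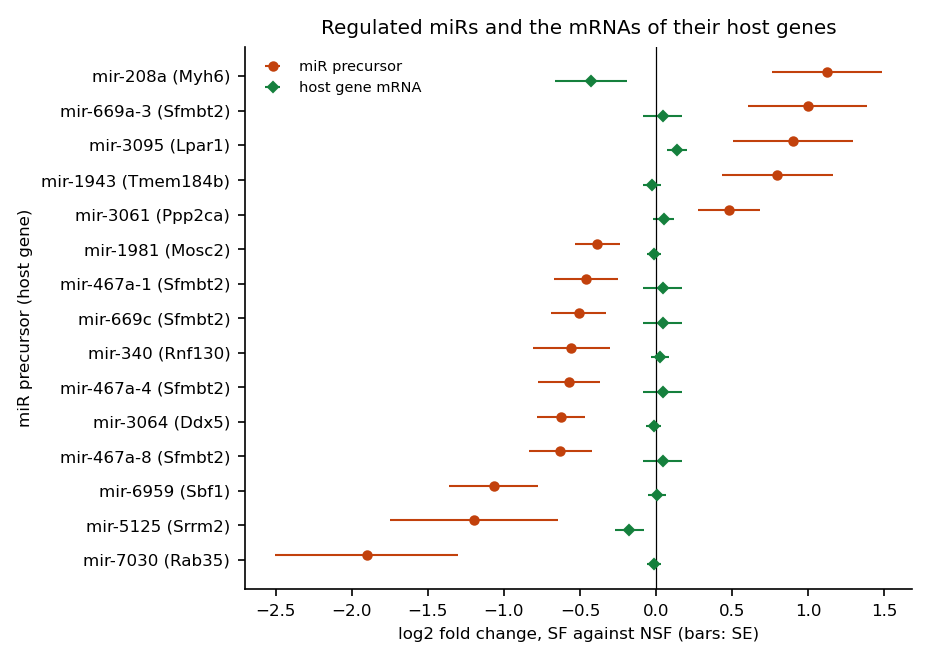
Log2 fold change, SF against NSF, with SE bars, of 15 regulated precursors (orange circles) and of the mRNA of the gene that hosts each (green diamonds). The precursors spread from −1.90 to 1.12 while the hosts stay between −0.43 (Myh6) and 0.14 (Lpar1).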

How the data were processed

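Small RNA and mRNA were measured in 12 libraries each, and 6 small RNA libraries (SF and NSF) are the subject here. Per the methods, the authors trimmed adaptors, discarded reads under a minimum length, aligned to mm9 with Bowtie and counted with HTSeq, and they deposited raw read counts per precursor and per gene, without normalization. The methods describe counting against mature miRs, whereas the names in the table are of precursors, so which stretch a count covers is not settled here. The strand setting is not given in the sources used here. Counts were scaled by TMM and tested with voom-limma (R 4.3.3, limma 3.58.1, edgeR 4.0.16, DESeq2 1.42.0), with 1 mean per group over all 12 libraries of an assay. The thresholds for regulated (p under 0.05 before adjustment, 1.3-fold) follow the study. Adjustment was by Benjamini-Hochberg across every feature tested in an assay. CPM values use TMM-scaled library sizes, SE is that of the log2 fold change, and counting error limits precursors with few reads. The steps were tested on simulated data.

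Precursors were placed in NCBIM37 by exact match of RefSeq hairpins on the same chromosome (950) or by GENCODE name (124 of 1074). Clusters join gaps of up to 10 kb. Named precursors are all those regulated, the 10 with the most reads, marker list members, and in each family or cluster described the regulated members and the one with the most reads. Members, lists and tests were chosen with earlier results of these data known. Same-numbered SF and NSF libraries deviated together (r = 0.112, 0.192 and 0.312 across precursors), but same-numbered SM and NSM libraries did not all (0.058, −0.013 and 0.313, with 2 pairs of unlike number at 0.190 and 0.194), so the block is read for females only. For females, a fit with replicate number as a block was run beside the main one, the numbers coming from the sample titles.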

Additional observations from a re-analysis of the deposited data

Results flagged for a closer look

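mir-206 was the only precursor for which the stress effect differed between the sexes past an adjusted p of 0.05. The female minus male difference in log2 fold change was −1.80 ± 0.30 SE (limma adjusted p = 0.0131), with all 3 SF libraries below all 3 NSF libraries and all 3 SM libraries above all 3 NSM libraries. Its adjusted p for this difference stayed between 4.20e-07 (DESeq2) and 0.0394 (limma without SF replicate 1) over the 16 alternatives run for it. These include the replicate block, which is read for females only. With 1 female library left out the difference ran from −1.97 to −1.59. No fit left out a male library, so how far the difference rests on any of those was not tested. The other 7 tested members of the muscle list summed to 428 to 456 CPM in NSF and 376 to 449 CPM in SF, which overlap. Groups of 3 libraries were not tested for outlying samples.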

How the results depend on the processing

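For SF against NSF, under the 17 alternatives no regulated precursor changed sign and no precursor had an adjusted p under 0.05. Regulated precursors (up and down) numbered 12 (1 and 11) with DESeq2, 47 (18 and 29) when any read was enough for testing, 11 (2 and 9) with at least 10 reads in every library, and 0 (0 and 0) at an adjusted p under 0.05 against 40 (13 and 27) without the fold threshold. filterByExpr left 4 up, and library size scaling 11 down, with 19 regulated (8 up). That scaling moved the median log2 fold change of all precursors from 0.01 to 0.06. Leaving out 1 library gave 17 to 32 regulated precursors, 3 to 7 up and 11 to 25 down, with 3 up without NSF replicate 1 and 11 down without SF replicate 3. The cause of these changes was not tested, except that the filters change which precursors are tested, 896 with any read and 389 with at least 10 reads in every library.

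With replicate number as a block, 27 precursors were regulated (7 up, smallest adjusted p 0.174), 22 of them among the 24; mir-467a-1 and mir-3061 lost the call, and no other of the 24 did. The block made 1 host gene, Myh6, regulated against 0. The sex-by-stress difference held 21 precursors with DESeq2, 60 with any read and 18 with at least 10 reads in every library, against 34. Families and clusters with a regulated member numbered 4, 7 with library quality weights, and 4 to 7 with 1 library left out. Pooling of copies was chosen after seeing the data. Few reads limit 7 of the 24 precursors, and 5 mice per pool leave differences between mice unmeasured.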
